A study of Homo sapiens with 11 samples.

Results

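The BCL2 family decides whether the outer membrane of the mitochondrion stays closed or is opened in apoptosis. Of the 58735 genes listed, 10 of this family were taken by gene name: the survival genes BCL2, BCL2L1 and MCL1, the BH3-only genes PMAIP1, BBC3, BCL2L11, BID and BAD, and the effector genes BAX and BAK1. The levels of their messenger RNA were described across 4 groups of HEK293T cells, an established human embryonic kidney line. All 10 members passed the filter on low counts and were among the 18368 genes tested.

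Survival proteins hold the effectors BAX and BAK1, and the BH3-only activators that switch them on, in an inactive state. BH3-only proteins are made or activated under stress, and bind the survival proteins in preferred pairs, such as PMAIP1 (NOXA) with MCL1. Free BAX and BAK1 form pores through which cytochrome c leaves the mitochondrion, and caspases are then activated. Many of these proteins are also regulated after translation, which counts of messenger RNA do not measure.

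The study asked which genes respond to loss of URM1, a ubiquitin-like protein, and of NAE1 and UBE2M, which are known as enzymes of the NEDD8 pathway (a subunit of its E1 and an E2) and were tested there as E1 and E2 for URM1. Cells were transfected for 48 h with siRNA against NAE1 at 50 nM (siNAE1, n = 3), UBE2M at 70 nM (siUBE2M, n = 3) or URM1 at 60 nM (siURM1, n = 2), and the control group had 3 libraries. Per the labels the control cells received control siRNA, at no stated dose, and the methods of the study name a non-targeting siRNA as negative control, whereas its supplement uses the name HKWT for these libraries. If they were not transfected, effects of transfection and of a target cannot be told apart. The siRNA doses also differed between the targets. The supplement of the study lists a single siRNA sequence for each target. Loss of the target and other effects of that sequence therefore cannot be told apart. The labels call the replicates biological without describing separate cultures, so p-values measure the spread between these libraries, which may in part be technical.

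Total counts were 11733163 to 16321391 per library. Levels are given as CPM, the counts of a gene relative to the library total, scaled by TMM, changes are log2 fold changes from edgeR's quasi-likelihood test, and a gene passed at a Benjamini-Hochberg adjusted p under 0.05 over all 18368 genes. Each siRNA lowered its target: NAE1 was at 98.9, 109 and 99 CPM in the control and at 41.6, 42.6 and 35.2 CPM with siNAE1, UBE2M fell from 263, 268 and 264 CPM to 15.6, 15.6 and 19.1 CPM with siUBE2M, and URM1 fell from 54.4, 51.0 and 55.4 CPM to 15.2 and 15.5 CPM with siURM1. The targets also moved in the other knockdowns. UBE2M fell with siURM1 (log2 fold change -0.37, adjusted p = 8.9e-05, edgeR) and with siNAE1 (-0.16, adjusted p = 0.029). The latter call was lost without siNAE1 replicate 1 (-0.14, adjusted p = 0.0971). NAE1 rose with siUBE2M (0.28, adjusted p = 0.0019) and siURM1 (0.38, adjusted p = 0.00022), and URM1 rose with siNAE1 (0.28, adjusted p = 0.0032, edgeR). URM1 did not pass with siUBE2M (-0.16, adjusted p = 0.096). Markers of the line were present in all libraries, VIM at 164 to 378 CPM and KRT18 at 33.3 to 55.3 CPM, as were KRT8 (13.2 to 28.9 CPM), PAX2 (4.34 to 19.7 CPM) and LIN28B (45.8 to 113 CPM). Of 13 markers of other cell types, CD3E and HBB were at 0 counts in every library, ALB, APOA1, TTR, PTPRC, PECAM1, CDH5, DCN and ALAS2 were at 0.81 CPM or less, CD14 was at 0.181 to 3.16 CPM and LUM at 0.189 to 1.77 CPM, and COL1A1 was at 16.7 to 29.4 CPM. In such bulk samples, fewer cells that express a gene and less RNA per cell cannot be told apart.

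With siNAE1, MCL1, BCL2L11, BAX and BAK1 rose and BCL2, PMAIP1, BBC3 and BID fell. With siUBE2M, BCL2L11 and BAX rose and BCL2, BCL2L1 and PMAIP1 fell. With siURM1, MCL1, BCL2L11 and BAK1 rose and PMAIP1, BBC3 and BID fell. BCL2L11 was thus higher and PMAIP1 lower in all 3 knockdowns, and these comparisons share the 3 control libraries. The share of all genes that passed in the same direction in all 3 knockdowns was not counted.

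The background of change was high. In siNAE1, 4 members were higher and 4 lower of 10, where 27.6% of all genes tested were higher and 27.1% lower. In siUBE2M, 2 members were higher and 3 lower, where the shares of all genes were 22.7% and 22.6%. In siURM1, 3 members were higher and 3 lower, and both shares of all genes were 20.8%. The median log2 fold change of the members was 0.03, -0.09 and -0.07 in siNAE1, siUBE2M and siURM1, beside -0.0021, 0.0075 and -0.0209 over all genes. The family as a whole therefore had no common direction, and its changes lay in single genes.

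Changes were also modest in size. With the threshold of the study, which asks for a log2 fold change of at least 1 in either direction as well, BCL2L1 in siUBE2M was the only member called against the control, where 7.11% of all genes were called. Without TMM, PMAIP1 in siUBE2M was called too (-1.03), and glmTreat, which tests against a size of 1, called 0 members there. The largest sizes were 0.75 in siNAE1 (BAK1) and 0.89 in siURM1 (BCL2L11), under that threshold, which 13.9% and 7.62% of all genes passed in these knockdowns.

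**Figure D1:**
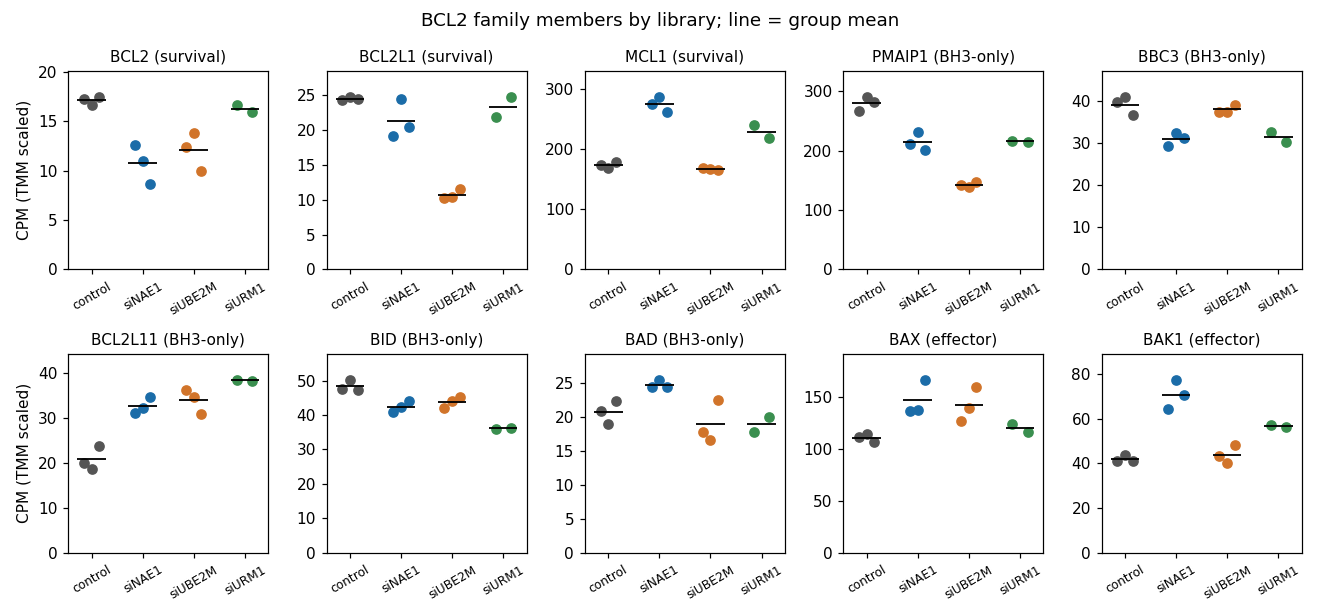
Level of each BCL2 family gene in the 11 libraries (y axis, CPM with TMM scaling, from 0, with a scale for each gene; x axis, group); points are libraries and lines are group means. BCL2L1 lies at 10.2 to 11.6 CPM with siUBE2M and at 19.1 CPM or above in every other library, and PMAIP1 is lower and BCL2L11 higher than in the control in every knockdown library.

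BCL2, the founding survival gene of the family, was the least expressed member per length. Its level was 17.3, 16.7 and 17.5 CPM in the control, 12.6, 11.0 and 8.61 CPM with siNAE1, 12.4, 13.8 and 9.97 CPM with siUBE2M, and 16.7 and 15.9 CPM with siURM1. Every siNAE1 and siUBE2M library was below every control library, whereas siURM1 replicate 1 was level with the lowest control at this rounding. The log2 fold change was -0.67 ± 0.13 (SE, adjusted p = 7e-05, edgeR) with siNAE1 and -0.51 ± 0.13 (adjusted p = 0.0016) with siUBE2M. With siURM1 it was -0.07, with a 95% interval of -0.36 to 0.21, and did not pass (adjusted p = 0.71).

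BCL2L1, which encodes BCL-XL and is a main survival gene of many epithelial cells, had the largest change of the family. Its level was 24.3, 24.7 and 24.5 CPM in the control, 19.1, 24.5 and 20.5 CPM with siNAE1, 10.2, 10.4 and 11.6 CPM with siUBE2M, and 21.9 and 24.8 CPM with siURM1. The siUBE2M libraries stood apart from all others, and siNAE1 and siURM1 overlapped the control. The fall with siUBE2M was 2.29-fold (log2 fold change -1.19 ± 0.11, SE, adjusted p = 2.8e-10, edgeR), from 389 to 403 counts per control library to 138 to 165 counts. With siNAE1 the log2 fold change was -0.19 (95% interval -0.41 to 0.02, adjusted p = 0.12) and with siURM1 it was -0.07 (95% interval -0.31 to 0.16, adjusted p = 0.66). Without siNAE1 replicate 2, the highest of its group, the siNAE1 value was -0.31 (adjusted p = 0.0263, edgeR).

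MCL1, a survival gene with a short-lived protein, moved otherwise. Its level was 174, 168 and 178 CPM in the control, 275, 287 and 261 CPM with siNAE1, 169, 167 and 165 CPM with siUBE2M, and 240 and 218 CPM with siURM1. The siNAE1 and siURM1 libraries were all above the control, and siUBE2M overlapped it. MCL1 rose by a log2 fold change of 0.66 ± 0.06 (SE, adjusted p = 4.8e-11, edgeR) with siNAE1 and 0.40 ± 0.07 (adjusted p = 9.6e-06) with siURM1. With siUBE2M the value was -0.06, with a 95% interval of -0.18 to 0.07 (adjusted p = 0.47). The counts are per gene, so that the spliced forms of MCL1, BCL2L1 and BCL2L11, some of which have opposite activities, were not separated.

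PMAIP1, the BH3-only gene that encodes NOXA, was the most abundant member per length and fell in every knockdown. Its level was 267, 291 and 282 CPM in the control, 211, 231 and 202 CPM with siNAE1, 142, 139 and 147 CPM with siUBE2M, and 216 and 215 CPM with siURM1. No knockdown library reached the lowest control, and the siUBE2M libraries were below those of the other knockdowns. The log2 fold change was -0.97 ± 0.06 (SE, adjusted p = 3.2e-14, edgeR) with siUBE2M, -0.38 ± 0.06 (adjusted p = 2.9e-06) with siNAE1 and -0.38 ± 0.07 (adjusted p = 3.1e-05) with siURM1.

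BCL2L11, which encodes the BH3-only activator BIM, rose in every knockdown. Its level was 19.9, 18.6 and 23.7 CPM in the control, 31.0, 32.1 and 34.5 CPM with siNAE1, 36.2, 34.6 and 30.8 CPM with siUBE2M, and 38.4 and 38.2 CPM with siURM1. The lowest knockdown library was above the highest control. The log2 fold change was 0.65 ± 0.10 (SE, adjusted p = 1.5e-06, edgeR) with siNAE1, 0.71 ± 0.10 (adjusted p = 4.9e-07) with siUBE2M and 0.89 ± 0.11 (adjusted p = 4.6e-08) with siURM1. The siURM1 value was 1.0034 without control replicate 3, the highest of the control.

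BBC3, which encodes PUMA, a BH3-only target of p53, was at 39.7, 41.0 and 36.6 CPM in the control, 29.2, 32.4 and 31.2 CPM with siNAE1, 37.4, 37.4 and 39.1 CPM with siUBE2M, and 32.5 and 30.3 CPM with siURM1. The siNAE1 and siURM1 libraries were below the control, and siUBE2M lay within its range. BBC3 fell with siNAE1 (log2 fold change -0.34 ± 0.09, SE, adjusted p = 0.0012, edgeR) and siURM1 (-0.32 ± 0.09, adjusted p = 0.0071), and with siUBE2M the value was -0.04 (95% interval -0.21 to 0.13, adjusted p = 0.71). The siURM1 call was lost without siURM1 replicate 2 (-0.27, adjusted p = 0.0966, edgeR) and held when any other single library was left out.

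BID links death receptors to the mitochondrion after it is cut by caspase-8. Its level was 47.6, 50.2 and 47.3 CPM in the control, 41.0, 42.2 and 44 CPM with siNAE1, 41.9, 44.1 and 45.2 CPM with siUBE2M, and 36 and 36.2 CPM with siURM1. All knockdown libraries were below the control, with siURM1 lowest. The fall with siURM1 was -0.42 ± 0.09 (log2 fold change, SE, adjusted p = 2e-04, edgeR), that with siNAE1 was -0.19 ± 0.08 (adjusted p = 0.037), and the value with siUBE2M, -0.15 (95% interval -0.30 to 0.01), did not pass (adjusted p = 0.12). The siNAE1 call was lost without any 1 control library or without siNAE1 replicate 1 or 2, with values of -0.16 to -0.20 and adjusted p of 0.0518 to 0.141, and without the filter on low counts (-0.19, adjusted p = 0.116). Without TMM it was -0.32 (adjusted p = 0.00086, edgeR).

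BAD, a BH3-only protein held in check by growth factor signalling through phosphorylation, did not pass in any knockdown. Its level was 20.8, 18.9 and 22.3 CPM in the control, 24.3, 25.4 and 24.4 CPM with siNAE1, 17.7, 16.5 and 22.5 CPM with siUBE2M, and 17.8 and 19.9 CPM with siURM1. The siNAE1 libraries were all above the control, at the edge of the threshold (log2 fold change 0.25 ± 0.11, SE, adjusted p = 0.0502, edgeR), and the other groups overlapped it. The siNAE1 value passed without control replicate 3 (0.31, adjusted p = 0.0361), without siUBE2M replicate 2 (0.26, adjusted p = 0.0438) or without siUBE2M replicate 3 (0.26, adjusted p = 0.0318), and with only siNAE1 and the control in the fit (0.24, adjusted p = 0.0491), in edgeR. Over all 19 alternatives it ranged from 0.13, without TMM, to 0.31, with adjusted p of 0.032 to 0.33. The value was -0.13 with siUBE2M (95% interval -0.36 to 0.10) and -0.13 with siURM1 (95% interval -0.39 to 0.12). Exons of GPR137 on the opposite strand cover 23.7% of the exon bases of BAD. The libraries were made with a strand-specific kit, but the strand setting of the counting is not given in the sources used here, so that reads of this pair (mean 304.2 counts for BAD and 756 for GPR137) may not be separated.

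BAX, the effector that moves from the cytosol to the mitochondrion, was at 111, 114 and 106 CPM in the control, 136, 137 and 166 CPM with siNAE1, 127, 139 and 159 CPM with siUBE2M, and 124 and 116 CPM with siURM1. Every knockdown library was above every control library, although the siURM1 difference was small. BAX rose by a log2 fold change of 0.41 ± 0.08 (SE, adjusted p = 4.2e-05, edgeR) with siNAE1 and 0.36 ± 0.08 (adjusted p = 0.00025) with siUBE2M. With siURM1 the value was 0.12 (95% interval -0.05 to 0.30) and did not pass (adjusted p = 0.27).

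BAK1, the effector resident in the outer mitochondrial membrane, was at 40.9, 43.9 and 41.1 CPM in the control, 64.2, 77.4 and 70.6 CPM with siNAE1, 43.2, 40.3 and 48.4 CPM with siUBE2M, and 57.4 and 56.2 CPM with siURM1. The siNAE1 libraries were highest, those of siURM1 lay between, and siUBE2M overlapped the control. BAK1 rose by 0.75 ± 0.08 (log2 fold change, SE, adjusted p = 2.8e-09, edgeR) with siNAE1 and 0.44 ± 0.09 (adjusted p = 0.00024) with siURM1. With siUBE2M the value was 0.07 (95% interval -0.10 to 0.24, adjusted p = 0.55).

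**Figure D2:**
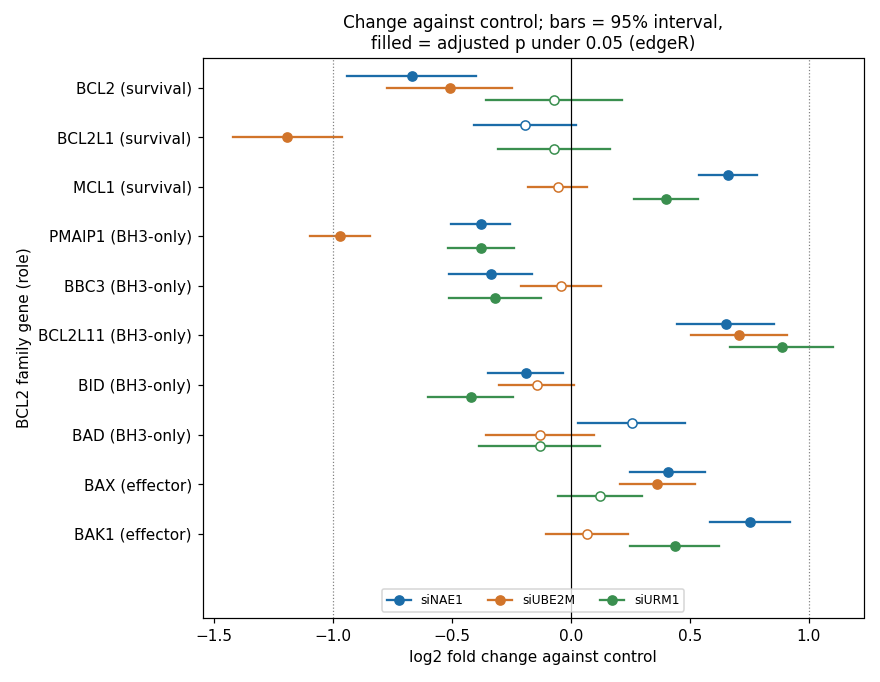
Log2 fold change of each gene against the control (x axis) for the 3 knockdowns, with 95% intervals from edgeR; filled points passed at an adjusted p under 0.05 and dotted lines mark a size of 1. BCL2L11 is higher and PMAIP1 lower in all 3 knockdowns, and BCL2L1 in siUBE2M, at -1.19, is the one point past a dotted line.

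Other genes overlap members as well. ABALON, on the opposite strand, covers 41.3% of the exon bases of BCL2L1 at a mean of 9.45 counts beside 290.4 for BCL2L1, and MIR4435-2HG, also on the opposite strand, covers 10.8% of those of BCL2L11 at 59.5 counts beside 443.5. As for BAD, the strand setting of the counting is not given, so that reads of these pairs may not be separated.

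The knockdowns were then compared with each other. Against siUBE2M, siNAE1 had 5 members higher and 1 lower of 10, where 22.7% and 21.6% of all genes tested were higher and lower, and the median of the members was 0.21 beside -0.0165 over all genes. Against siURM1, siNAE1 also had 5 higher and 1 lower, where 19.5% and 19.1% of all genes were, with medians of 0.12 and 0.0014. Without siURM1 replicate 2, 2 of these 6 members passed. Between siUBE2M and siURM1, 3 members were higher in siUBE2M and 5 lower, where 16.7% and 18.3% of all genes were, with medians of -0.27 and 0.0075. Of these 8, 5 passed without siUBE2M replicate 3, 4 without siURM1 replicate 1 and 5 without siURM1 replicate 2. With a size of at least 1 required, 7.84%, 6.76% and 5.41% of all genes were called in these comparisons, and of the members BCL2L1 between siUBE2M and siURM1 was called, whereas glmTreat called 0 members there. The 3 comparisons share libraries pairwise, and the groups differed in siRNA dose and in the level of the target that was left.

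siUBE2M differed from both other knockdowns in BCL2L1, MCL1, PMAIP1, BBC3 and BAK1. BCL2L1 was higher in siNAE1 than in siUBE2M by 1.00 ± 0.12 (log2 fold change, SE, adjusted p = 1.8e-08, edgeR), a value of 0.9997 that lay just under the threshold of size. Its size passed 1 without siNAE1 replicate 1 (1.08), siNAE1 replicate 3 (1.04), siUBE2M replicate 3 (1.06) or siURM1 replicate 2 (1.0014). It was lower in siUBE2M than in siURM1, with a log2 fold change of -1.12 ± 0.12 (adjusted p = 1.6e-08, edgeR). PMAIP1 was also lowest in siUBE2M, with a log2 fold change of 0.59 ± 0.06 for siNAE1 over siUBE2M (adjusted p = 2.2e-09) and of -0.59 ± 0.07 for siUBE2M over siURM1 (adjusted p = 2.8e-08, edgeR). Hence the survival gene BCL2L1 and the BH3-only gene PMAIP1 were both lowest there, at 43.7% and 51.0% of the control mean.

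MCL1 and BAK1 were ordered alike, with siNAE1 above siURM1 above siUBE2M. MCL1 was higher in siNAE1 than in siUBE2M by 0.72 ± 0.06 (log2 fold change, SE, adjusted p = 2.1e-11, edgeR), and lower in siUBE2M than in siURM1 (-0.46 ± 0.07, adjusted p = 1.9e-06). The difference between siNAE1 and siURM1 was 0.26 ± 0.07 (adjusted p = 0.0020), and was 0.19 without siURM1 replicate 2 (adjusted p = 0.0885, edgeR). BAK1 was higher in siNAE1 than in siUBE2M by 0.69 ± 0.08 (adjusted p = 3.7e-08, edgeR) and lower in siUBE2M than in siURM1 (-0.37 ± 0.09, adjusted p = 0.0020). Its difference between siNAE1 and siURM1, 0.32 ± 0.09 (adjusted p = 0.0059), was 0.25 without siNAE1 replicate 2 (adjusted p = 0.0508) and 0.30 without siURM1 replicate 2 (adjusted p = 0.0550, edgeR).

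BCL2 was lower in siNAE1 than in siURM1 (log2 fold change -0.60 ± 0.15, SE, adjusted p = 0.0015, edgeR). It was also lower in siUBE2M than in siURM1 (-0.44 ± 0.14, adjusted p = 0.018, edgeR), a call lost without siUBE2M replicate 3 (-0.32, adjusted p = 0.0983) or siURM1 replicate 1 (-0.40, adjusted p = 0.111). Between siNAE1 and siUBE2M the value was -0.16, with a 95% interval of -0.44 to 0.12.

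BBC3 was lower in siNAE1 than in siUBE2M (-0.30 ± 0.09, log2 fold change, SE, adjusted p = 0.0055, edgeR) and higher in siUBE2M than in siURM1 (0.28 ± 0.10, adjusted p = 0.024). The latter call was lost without siUBE2M replicate 3 (0.25, adjusted p = 0.0573), siURM1 replicate 1 (0.33, adjusted p = 0.0551) or siURM1 replicate 2 (0.22, adjusted p = 0.194, edgeR), and without the filter on low counts (0.28, adjusted p = 0.0561). Between siNAE1 and siURM1 the value for BBC3 was -0.02, with a 95% interval of -0.22 to 0.18.

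BAD was higher in siNAE1 than in siUBE2M (0.38 ± 0.11, log2 fold change, SE, adjusted p = 0.0056, edgeR) and siURM1 (0.39 ± 0.12, adjusted p = 0.014). The first value was 0.28 without siUBE2M replicate 2 (adjusted p = 0.0692) and the second 0.31 without siURM1 replicate 1 (adjusted p = 0.163, edgeR).

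BAX was lower in siURM1 than in siNAE1 (0.28 ± 0.09 for siNAE1 over siURM1, log2 fold change, SE, adjusted p = 0.0095, edgeR) and siUBE2M (0.24 ± 0.09 for siUBE2M over siURM1, adjusted p = 0.030). The first was lost without siNAE1 replicate 3 (0.19, adjusted p = 0.0852) or siURM1 replicate 2 (0.24, adjusted p = 0.112). The second was lost without siUBE2M replicate 3 (0.15, adjusted p = 0.174), siURM1 replicate 1 (0.28, adjusted p = 0.0621) or siURM1 replicate 2 (0.19, adjusted p = 0.225, edgeR).

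BID was likewise lower in siURM1, by 0.23 ± 0.09 for siNAE1 over siURM1 (log2 fold change, SE, adjusted p = 0.038, edgeR) and 0.28 ± 0.09 for siUBE2M over siURM1 (adjusted p = 0.014). The first held only without siNAE1 replicate 1 or siUBE2M replicate 3, and was lost when any other single library was left out, with values of 0.21 to 0.23 and adjusted p of 0.0518 to 0.160. With all libraries kept, it was also lost without TMM (0.20, adjusted p = 0.0750), without the filter on low counts (0.23, adjusted p = 0.107) and with 2 groups per fit (0.22, adjusted p = 0.0840, edgeR). The second was lost without siURM1 replicate 1 (0.27, adjusted p = 0.0894) or replicate 2 (0.28, adjusted p = 0.0766, edgeR).

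BCL2L11 did not pass in any of the 3 comparisons between knockdowns, and the widest, -0.24 for siNAE1 over siURM1, had a 95% interval of -0.45 to -0.02 (adjusted p = 0.077, edgeR). That difference passed with library totals that were not scaled by TMM (-0.27, adjusted p = 0.0471, edgeR). Between siNAE1 and siURM1, PMAIP1 had a log2 fold change of -0.0002, with a 95% interval of -0.14 to 0.14, and BCL2L1 one of -0.12, with a 95% interval of -0.36 to 0.12, and neither passed.

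**Figure D3:**
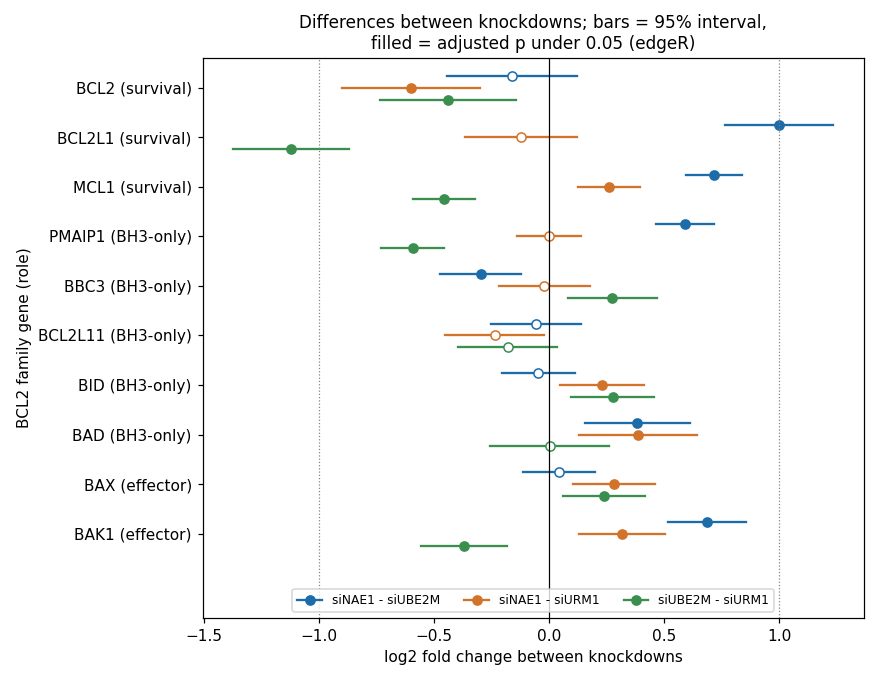
Log2 fold change of each gene between pairs of knockdowns (x axis; the first-named minus the second-named knockdown), with 95% intervals from edgeR; filled points passed at an adjusted p under 0.05. BCL2L1 and PMAIP1 are lower in siUBE2M than in both other knockdowns, and the 3 points of BCL2L11 are open.

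To compare members with each other, levels were taken per length, as FPKM. These values use a single listed length for each gene, whichever spliced form was expressed, so the order of members depends on it. On the CPM scale, MCL1 (174) stood above BAX (110) in the control, and BID (48.4) above BAK1 (42) and BBC3 (39.1). In the control, PMAIP1 was highest at 124 ± 5.87 FPKM (SD, n = 3), followed by BAX at 42.3 ± 1.60 and MCL1 at 39.4 ± 1.04, BAK1 at 18.8 ± 0.831, BBC3 at 12.2 ± 0.721, BAD at 12 ± 0.967, BID at 10.8 ± 0.399, BCL2L1 at 7.34 ± 0.0953, BCL2L11 at 3.09 ± 0.395 and BCL2 at 1.45 ± 0.0318 FPKM. The libraries of BBC3 and BAD overlapped, as did those of BAD and BID, whereas no other neighbours in this order overlapped, BAX (40.6 to 43.8 FPKM) and MCL1 (38.4 to 40.5 FPKM) being the closest of them.

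On the FPKM scale, the order of 3 pairs changed with knockdown. BAD stood above BBC3 in siNAE1, at 14.3 ± 0.342 against 9.59 ± 0.495 FPKM (SD, n = 3), and in siURM1, at 11.0 ± 0.869 against 9.78 ± 0.476 FPKM (n = 2), without overlap in either. MCL1 stood above BAX in siNAE1, at 61.9 ± 2.83 against 55.8 ± 6.55 FPKM (SD, n = 3) with overlapping libraries, and in siURM1, at 51.9 ± 3.52 against 46.0 ± 2.06 FPKM (n = 2) without overlap. BCL2L11 stood above BCL2L1 in siUBE2M, at 4.58 to 5.37 FPKM against 3.03 to 3.47 FPKM, whereas in the other groups BCL2L1 was the higher. The FPKM ratio of BCL2L1 to BCL2L11 was 2.46, 2.67 and 2.08 in the control libraries and 0.565, 0.606 and 0.757 with siUBE2M. It was 1.24, 1.54 and 1.19 with siNAE1 and 1.14 and 1.31 with siURM1, so that every knockdown library was below the control.

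The ratio of MCL1 to PMAIP1, a survival protein and its preferred BH3-only partner, was 0.333, 0.297 and 0.324 on the FPKM scale in the control, 0.666, 0.634 and 0.661 with siNAE1, 0.606, 0.615 and 0.574 with siUBE2M, and 0.569 and 0.519 with siURM1. Every knockdown library was above the control. In siUBE2M the numerator did not pass and the denominator fell, and in the other knockdowns both changed in opposite directions. The ratio of BCL2 to BAX was instead lower than the control in every knockdown library. It was 0.0341, 0.0323 and 0.0364 in the control, 0.0204, 0.0176 and 0.0114 with siNAE1, and 0.0214, 0.0217 and 0.0138 with siUBE2M. With siURM1, where neither gene passed, it was 0.0297 and 0.0301.

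By role, the 5 BH3-only genes held 59.7% ± 0.720 (SD, n = 3) of the summed FPKM of the family in the control, the 3 survival genes 17.7% ± 0.666 and the 2 effectors 22.5% ± 0.686. The share of the BH3-only genes was 45.9% ± 1.40 with siNAE1, 46.5% ± 0.841 with siUBE2M and 49.7% ± 1.05 (n = 2) with siURM1. The share of the effectors was 30.2% ± 2.33, 34.1% ± 1.81 and 27.3% ± 0.383 in the same order, and that of the survival genes 23.9% ± 0.965, 19.4% ± 1.08 and 23.0% ± 0.662. Control libraries did not overlap the knockdown libraries in any of these shares, and PMAIP1 made up most of the BH3-only sum. In summed level, survival genes were at 48.2 ± 1.05 FPKM in the control and at 41.9 ± 0.278 FPKM with siUBE2M, but at 69.2 ± 3.52 FPKM with siNAE1 and 60.3 ± 2.95 FPKM with siURM1. No test was made on these sums, because their makeup follows from the member values above.

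**Figure D4:**
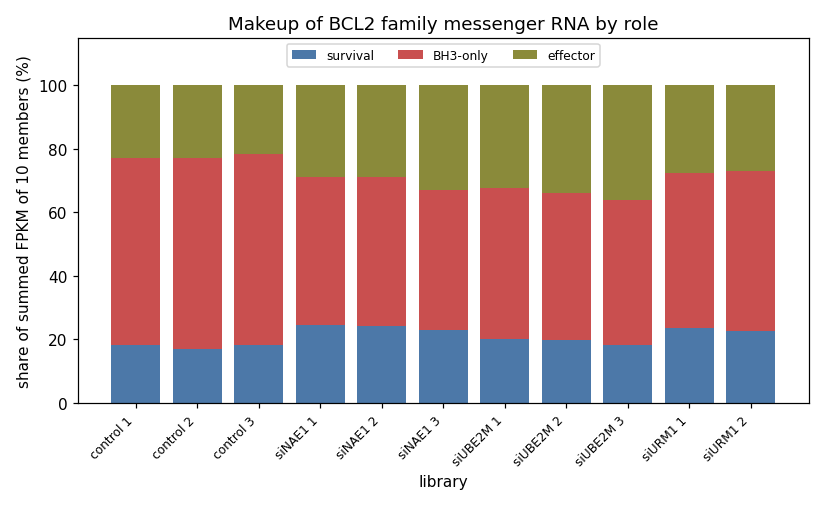
Share of the summed FPKM of the 10 genes held by survival, BH3-only and effector genes (y axis, percent, from 0) in each of the 11 libraries (x axis). BH3-only genes hold 58.9% to 60.2% in the control libraries and 44.3% to 50.4% in the knockdown libraries.

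The genes nearest in profile were sought for BCL2L1 and PMAIP1, the members with the largest changes, among all genes whose mean level was 10 CPM or more. Likeness was the root mean square difference over the 3 log2 fold changes against the control. The nearest to BCL2L1 were RRP9 (0.0723), FAH (0.139) and MRPS10 (0.140), and the nearest to PMAIP1 were EIF2D (0.0427), ANGEL1 (0.0555) and ZNF768 (0.0572).

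Promoter sequence was read from RefSeq on GRCh38.p14, from 250 bases before to 50 after each start, for 9 of the 10 members. MCL1 is absent from the table. Motifs known for stress and growth factors were searched on both strands after the promoters had been seen. The FOXO core was searched as the letters GTAAACA. The cyclic AMP response element was searched as its short form, which has the letters TGACGT, and as its full form, which contains the short one and reads TGACGTCA. The E-box was searched as the palindrome CACGTG. The composite site of ATF4 was searched as the letters TGATGNAAT. The windows below show the match in BCL2L11, which rose in every knockdown, that in PMAIP1, which fell in every knockdown, and 2 of the E-boxes of BAX, with the matched letters in capitals.
BCL2L11, chr2:111120680-111120708, plus strand: gagttactccgGTAAACAcgccagggacg
PMAIP1, chr18:59899929-59899956, plus strand (short response element, read on the minus strand): ctagtttccctACGTCAccagggaagtt
BAX, chr19:48954726-48954753, plus strand: cattggacagtCACGTGacgggaccaaa
BAX, chr19:48954771-48954798, plus strand: gcaggtgcggtCACGTGacccggcggcg

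The FOXO core of BCL2L11 began 223 bases before its start and was found in 3.42% of 35116 promoters, and the short element of PMAIP1 began 56 bases before its start and was found in 7.98%. BAD also held the short element. BAX held 4 E-boxes, at 138, 93, 45 and 14 bases before its start, where 7.26% of promoters held at least 1 and 0.0940% held 3 or more. BBC3 and BID held E-boxes too. The full response element (1.85% of promoters) and the ATF4 composite (0.991%) were not in these windows of the members. A match describes letters and not binding, and a link between any match and a change was not tested.

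Other apoptosis genes gave the setting of these changes, in 7 lists written for this comparison with earlier results known, all against the control. Of all genes tested, 27.6% rose and 27.1% fell with siNAE1, 22.7% and 22.6% with siUBE2M, and 20.8% and 20.8% with siURM1. Of the other BCL2 family genes, 10 of 13 were tested, and 2 rose and 5 fell with siNAE1, 2 rose with siUBE2M, and 2 rose and 3 fell with siURM1. The median log2 fold changes were -0.15, 0.06 and -0.21. BCL2L12, an atypical member of the family, rose in every knockdown, from 40.0, 39.7 and 32.7 CPM to 69.1, 75.3 and 81.3 CPM (siNAE1), 63.9, 68.5 and 78.3 CPM (siUBE2M) and 78.8 and 76.1 CPM (siURM1). These changes were 1.00 ± 0.09, 0.91 ± 0.09 and 1.05 ± 0.10 (log2 fold change, SE), with adjusted p of 2.3e-11, 4e-10 and 1.5e-10 in edgeR.

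Of 10 mitochondrial partners of the family, which were proteins of the outer membrane or recruited to it and OPA1 of the inner membrane, 9 rose with siNAE1, 6 rose with siUBE2M, and 8 rose and 1 fell with siURM1, with medians of 0.29, 0.25 and 0.33, where 27.6%, 22.7% and 20.8% of all genes were higher. VDAC1, the main channel of that membrane, was at 152, 165 and 155 CPM in the control, 407, 418 and 396 CPM with siNAE1, 279, 268 and 297 CPM with siUBE2M, and 329 and 341 CPM with siURM1. Every knockdown library of VDAC1 was above the control, by a log2 fold change of 1.37 ± 0.06 (SE), 0.84 ± 0.06 and 1.09 ± 0.06 (adjusted p = 1.3e-18, 5.1e-13 and 1.3e-14, edgeR). VDAC1 has processed copies in the genome, and how the counting treated reads shared with them is not given in the sources used here.

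Downstream of the mitochondrion, of 15 genes of the apoptosome, caspases and IAP proteins 5 rose and 3 fell with siNAE1, 4 rose and 3 fell with siUBE2M, and 4 rose and 6 fell with siURM1, with medians of 0.18, -0.04 and -0.22, where 27.6% and 27.1%, 22.7% and 22.6%, and 20.8% and 20.8% of all genes rose and fell. ENDOG, a mitochondrial nuclease, rose with siURM1 (log2 fold change 1.06 ± 0.11, SE, adjusted p = 3e-09, edgeR) and siNAE1 (0.38 ± 0.11, adjusted p = 0.0030), and its value with siUBE2M was 0.24 (adjusted p = 0.062).

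In the death receptor pathway, 10 of 11 genes were tested. With siNAE1 4 rose and 2 fell, with siUBE2M 3 rose, and with siURM1 1 rose and 3 fell, with medians of -0.06, 0.15 and -0.02. The shares of all genes that rose and fell were 27.6% and 27.1%, 22.7% and 22.6%, and 20.8% and 20.8%. TNFRSF10D, a decoy receptor for TRAIL, rose from 6.22, 6.70 and 6.06 CPM to 34.4, 36.2 and 31.7 CPM with siNAE1, 13.3, 16.1 and 15.9 CPM with siUBE2M and 16.3 and 15.8 CPM with siURM1 (log2 fold change 2.43 ± 0.12, 1.26 ± 0.12 and 1.34 ± 0.13, SE, adjusted p = 1.4e-17, 5.7e-10 and 9.4e-10, edgeR). FAS, the receptor of FAS ligand, rose with siNAE1 (1.21 ± 0.15, adjusted p = 3.5e-08), and its values with siUBE2M and siURM1 were 0.20 and -0.25 and did not pass. CASP10, an initiator caspase, rose with siUBE2M (1.18 ± 0.18, adjusted p = 3.8e-06, edgeR), and its values were -0.14 with siNAE1 and 0.42 with siURM1.

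Of 18 genes of p53 and its targets, 6 rose and 6 fell with siNAE1, 5 rose and 4 fell with siUBE2M, and 5 rose and 8 fell with siURM1, with medians of -0.02, -0.10 and -0.22, beside 27.6% and 27.1%, 22.7% and 22.6%, and 20.8% and 20.8% of all genes. ZMAT3 rose with siNAE1 (log2 fold change 1.34 ± 0.10, SE, adjusted p = 3.6e-13, edgeR), with values of -0.17 and 0.19 in siUBE2M and siURM1. BTG2, an antiproliferative gene, rose by 1.56 ± 0.08, 0.52 ± 0.09 and 0.37 ± 0.10 in siNAE1, siUBE2M and siURM1 (adjusted p = 1.9e-16, 6.6e-06 and 0.0023, edgeR), the last with 0.31 and adjusted p of 0.0523 without siURM1 replicate 1. GDF15, a secreted stress hormone, fell in every knockdown, with values of -1.05 ± 0.16, -1.96 ± 0.18 and -0.53 ± 0.17 (adjusted p = 1.8e-06, 7.8e-11 and 0.013, edgeR), the last lost without siURM1 replicate 1 (-0.54, adjusted p = 0.0704) or replicate 2 (-0.51, adjusted p = 0.0815).

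Of 11 transcription factors known to act on members, 3 rose and 6 fell with siNAE1, 2 rose and 4 fell with siUBE2M, and 1 rose and 4 fell with siURM1, with medians of -0.24, 0.01 and -0.08, beside 27.6% and 27.1%, 22.7% and 22.6%, and 20.8% and 20.8% of all genes. DDIT3, a factor of the integrated stress response, was at 40.8, 43.4 and 37.4 CPM in the control, 14.4, 9.16 and 10.9 CPM with siNAE1, 22.7, 19.3 and 22.8 CPM with siUBE2M, and 24.4 and 23.8 CPM with siURM1, and it fell in every knockdown, with a log2 fold change of -1.82 ± 0.12, -0.91 ± 0.11 and -0.75 ± 0.12 (SE, adjusted p = 3.7e-14, 3.9e-08 and 9e-06, edgeR). ATF4, another factor of that response, rose with siNAE1 (0.67 ± 0.06, adjusted p = 2.4e-11) and siUBE2M (0.65 ± 0.06, adjusted p = 8.5e-11, edgeR), and its value with siURM1, 0.16, did not pass (adjusted p = 0.0506). FOXO3, a forkhead factor, fell in every knockdown, with values of -0.62 ± 0.07, -0.43 ± 0.07 and -0.45 ± 0.07 (adjusted p = 1.5e-09, 2.1e-06 and 8.4e-06, edgeR). Of the other forkhead factors listed, FOXO1 fell with siNAE1 (-0.40 ± 0.11, adjusted p = 0.0028, edgeR) and did not pass with siUBE2M (-0.0077) or siURM1 (0.08), and FOXO4 did not pass in any knockdown (0.06, 0.01 and 0.11). The naming of ATF4 and the forkhead factors came after their values had been seen, and no test linked any factor to a member. JUN, a subunit of AP-1, also fell, with values of -1.14 ± 0.06, -1.04 ± 0.06 and -0.61 ± 0.06 (adjusted p = 6.1e-17, 1.3e-15 and 3.4e-09, edgeR).

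Of 10 ubiquitin enzymes that act on members, 2 rose and 2 fell with siNAE1, 3 rose and 5 fell with siUBE2M, and 3 rose and 3 fell with siURM1, with medians of 0.06, -0.09 and 0.02, beside 27.6% and 27.1%, 22.7% and 22.6%, and 20.8% and 20.8% of all genes. None of their changes reached a size of 1, which 13.9%, 7.11% and 7.62% of all genes did with siNAE1, siUBE2M and siURM1.

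**Figure D5:**
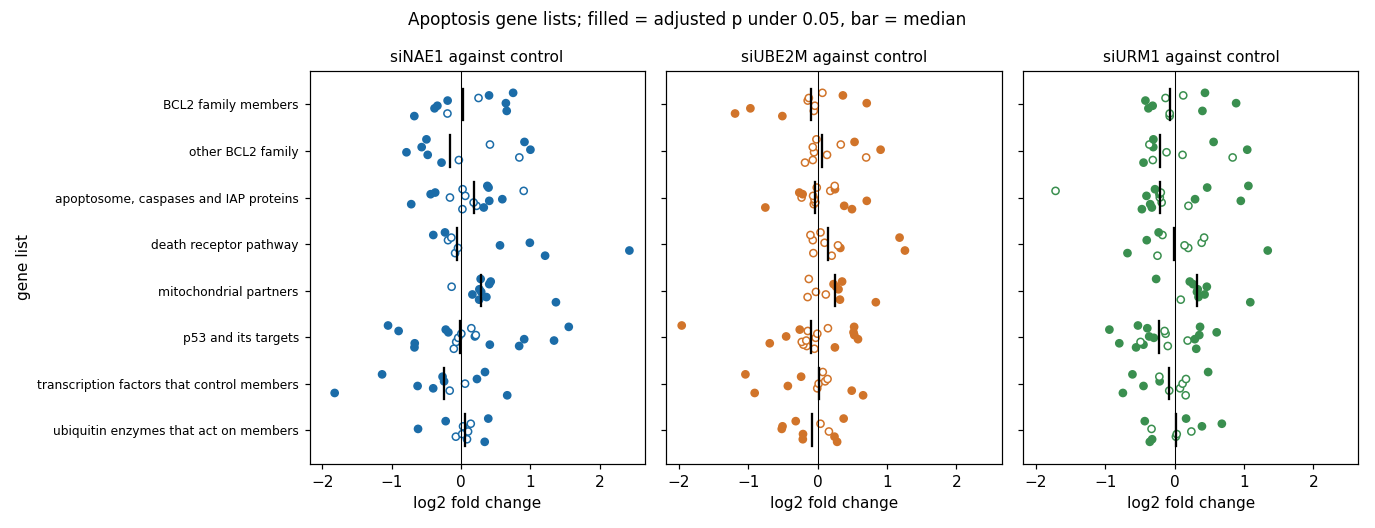
Log2 fold change against the control (x axis) of every tested gene of the BCL2 family members and 7 further apoptosis lists (y axis), in 1 panel for each knockdown; filled points passed at an adjusted p under 0.05 in edgeR and black bars are list medians. Points of the mitochondrial partners lie mostly above 0, with medians of 0.29, 0.25 and 0.33, and the other lists have points on both sides.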

How the data were processed

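Poly(A) RNA of 11 HEK293T libraries was sequenced with paired reads after a strand-specific dUTP protocol. The authors used fastp for trimming, HISAT2 2.0.5 for alignment to GRCh38 and featureCounts 1.5.0-p3 for counting, and deposited raw gene counts. The deposited FPKM values of the authors follow from the same counts, a gene length and a library constant. The study names DESeq2 1.20.0 for its tests. Here, counts were tested with edgeR 4.0.16 (filterByExpr, TMM, 1 quasi-likelihood fit of 4 groups), with Benjamini-Hochberg adjustment over 18368 genes; scripts were tested on simulated data. Alternatives were DESeq2 1.42.0, RLE, library totals without TMM (chosen after seeing the data), other filters, protein-coding genes, 2 groups per fit, a replicate block, glmTreat and each library left out. The members and gene lists were chosen with earlier results of these data known.

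Genes named with changes besides the members were the siRNA targets, those of each list past both thresholds in at least 1 knockdown with at least 1 CPM in a group, and the nearest 3 profiles of the 2 members with the largest changes. The factors ATF4, FOXO1, FOXO3 and FOXO4 of the lists fall outside this rule and were chosen with their values in view. Cell type markers and genes whose exons overlap members are named for their levels only. Depth was 11733163 to 16321391 counts per library, and intervals are those of the fit. Overlapping exons are from GENCODE v44 and were checked for the members alone. No column of sample values was left unused.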

Additional observations from a re-analysis of the deposited data

Results flagged for a closer look

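The effects of the knockdowns on members differed from each other in 20 of 30 tests of the difference itself (edgeR's quasi-likelihood test, adjusted over all genes). Of 10 members, 6 passed for siNAE1 over siUBE2M, where 44.3% of all genes passed in either direction. For siNAE1 over siURM1 6 passed, beside 38.6% of all genes, and without siURM1 replicate 2 this count was 2. For siUBE2M over siURM1 8 passed, beside 35.0%, and 4 to 8 when 1 library was left out, the fewest without siURM1 replicate 1. Of the 20, 10 were lost when at least 1 single library was left out. The largest was BCL2L1, with a log2 fold change of -1.12 between siUBE2M and siURM1 (adjusted p = 1.6e-08), and all 3 siUBE2M libraries were below both siURM1 libraries. Between siNAE1 and siUBE2M the values were 1.00 for BCL2L1, 0.72 for MCL1, 0.69 for BAK1, 0.59 for PMAIP1, 0.38 for BAD and -0.30 for BBC3. Between siNAE1 and siURM1 they were -0.60 for BCL2, 0.39 for BAD, 0.32 for BAK1, 0.28 for BAX, 0.26 for MCL1 and 0.23 for BID. Between siUBE2M and siURM1 they were also -0.59 for PMAIP1, -0.46 for MCL1, -0.44 for BCL2, -0.37 for BAK1, 0.28 for BBC3, 0.28 for BID and 0.24 for BAX. The siRNA doses were 50 nM, 70 nM and 60 nM for siNAE1, siUBE2M and siURM1. The targets were left at 38.9%, 6.34% and 28.6% of the control mean in the same order. Dose, depth of knockdown and target therefore cannot be told apart.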

How the results depend on the processing

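Among single member changes under the alternatives that keep all libraries, 463 kept their direction and side of the threshold, 7 lost a call, 5 gained one and 5 changed sign. With a library left out, 611 were kept, 32 lost a call, 4 gained one and 13 changed sign; none of the sign changes was of a called value. Without TMM, the median log2 fold change of all genes was -0.1266 in siNAE1, -0.0498 in siUBE2M and -0.1105 in siURM1. BCL2L1 then passed in siNAE1 (-0.32, adjusted p = 0.0108, edgeR), BID in siUBE2M (-0.20, adjusted p = 0.0287) and BCL2L11 between siNAE1 and siURM1 (-0.27, adjusted p = 0.0471). There, 2 members rather than 1 were called at a size of at least 1 in siUBE2M, and glmTreat, which tests against that size, called 0 in siUBE2M and 0 between siUBE2M and siURM1. Leaving out 1 library gave 0 to 1 such call in siURM1, 0 to 1 between siNAE1 and siUBE2M, 4 to 8 members passing between siUBE2M and siURM1 and 2 to 6 between siNAE1 and siURM1 (2 without siURM1 replicate 2).

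The replicate numbers did not pair the samples (correlations of same-numbered libraries -0.0657 to 0.0787). With the replicate block, 9, 5 and 6 members passed in siNAE1, siUBE2M and siURM1, and 6, 5 and 7 in siNAE1 over siUBE2M, siNAE1 over siURM1 and siUBE2M over siURM1. BAD then passed in siNAE1 (0.26, adjusted p = 0.0400, edgeR), and BID between siNAE1 and siURM1 (0.22, adjusted p = 0.0694) and BAX between siUBE2M and siURM1 (0.18, adjusted p = 0.0884) did not.

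The sign changes were in BAD between siUBE2M and siURM1 (DESeq2 -0.0003, RLE -0.0002, block -0.063, libraries left out -0.14 to 0.10), BAX between siNAE1 and siUBE2M (no TMM -0.0224, left out -0.0451 to 0.13), PMAIP1 (block 0.0044, left out -0.0564 to 0.0439) and BBC3 (left out -0.0714 to 0.029) between siNAE1 and siURM1, BBC3 (-0.0802 to 0.0013) and BAK1 (-0.0070 to 0.14) in siUBE2M, and BCL2L1 in siURM1 (-0.16 to 0.0187). Beside the members, CASP10, which was not called in siNAE1, changed sign there with a library left out (-0.25 to 0.0508). For these, the cause was not tested.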
